A study of Mus musculus with 10 samples.

Results

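The Schlafen family was followed in RAW264.7 cells, a line of mouse macrophages, through LPS stimulation and treatment with compound **1**. The members were taken by symbol as Slfn1, Slfn2, Slfn3, Slfn4, Slfn5, Slfn8 and Slfn9, 7 of the 43432 mouse genes in the count table, and all 7 passed the filter on low counts that left 14172 genes for testing. Cells were kept in 5 conditions with 2 libraries each. DMSO held resting cells in 0.5% DMSO without LPS, and DMSO + LPS held cells in 0.5% DMSO with LPS at 1 µg/mL. The remaining conditions received **1**, a keto fatty acid with an α,β-unsaturated carbonyl from a marine cyanobacterium, at 32, 10 or 3.2 µM together with the same LPS. Pretreatment lasted 1 h, and RNA was collected after 12 h. There was no condition with **1** and without LPS, so every effect of **1** given here is an effect in LPS-stimulated cells of 1 line.

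Schlafen proteins share a divergent AAA domain and take their name from the sleep-like growth arrest that the founding member caused in thymocytes. They are grouped by length into short members (Slfn1, Slfn2), intermediate members (Slfn3, Slfn4) and long members with a helicase-like domain (Slfn5, Slfn8, Slfn9). In myeloid cells many of them are known as interferon-stimulated genes: LPS acts through Toll-like receptor 4, the adaptor Ticam1 and kinases such as Tbk1 to induce interferon β, which signals to the interferon-stimulated response element (ISRE) of its target genes.

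The members lie in 1 cluster of 264 kb on chromosome 11 (GRCm38, GENCODE M21), chr11:82951349-83215154. From low to high coordinate the order is Slfn5 (plus strand), Slfn9 and Slfn8 (both minus), the pseudogene Slfn10-ps (minus), and Slfn2, Slfn1, Slfn4 and Slfn3 (all plus). The 250 bases before the RefSeq start (GRCm38.p6) are shown for 2 pairs of neighbors, since in each pair one member rose with LPS and the other fell. In the first pair the capitals mark the ISRE core, searched on both strands as GAAA, any 2 bases and GAAA again, and found here on the opposite strand as TTTCGTTTTC.
Slfn8, chr11:83020811-83021060, minus strand: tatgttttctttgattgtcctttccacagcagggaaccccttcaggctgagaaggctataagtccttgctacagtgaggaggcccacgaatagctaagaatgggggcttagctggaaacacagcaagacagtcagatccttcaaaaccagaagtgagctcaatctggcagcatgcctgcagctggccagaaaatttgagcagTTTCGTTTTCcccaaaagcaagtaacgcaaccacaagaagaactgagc
Slfn9, chr11:82991831-82992080, minus strand: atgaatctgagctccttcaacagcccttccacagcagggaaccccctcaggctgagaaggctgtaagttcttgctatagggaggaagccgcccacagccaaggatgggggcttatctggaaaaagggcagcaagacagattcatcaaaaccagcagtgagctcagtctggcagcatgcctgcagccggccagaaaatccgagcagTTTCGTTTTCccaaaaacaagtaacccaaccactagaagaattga
In the second pair the capitals mark ACTTCCTGG, a run found by comparing the members' own sequences and thus chosen after they were seen.
Slfn4, chr11:83174936-83175185, plus strand: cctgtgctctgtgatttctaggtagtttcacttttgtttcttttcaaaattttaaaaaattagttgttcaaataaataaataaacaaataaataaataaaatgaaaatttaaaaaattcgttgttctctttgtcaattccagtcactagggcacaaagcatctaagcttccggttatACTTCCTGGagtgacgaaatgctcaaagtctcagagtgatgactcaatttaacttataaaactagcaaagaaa
Slfn3, chr11:83191080-83191329, plus strand: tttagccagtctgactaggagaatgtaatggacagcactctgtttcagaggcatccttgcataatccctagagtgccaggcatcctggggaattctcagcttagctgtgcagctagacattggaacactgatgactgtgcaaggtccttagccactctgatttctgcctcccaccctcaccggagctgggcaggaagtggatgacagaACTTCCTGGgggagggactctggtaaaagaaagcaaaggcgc
Slfn8 and Slfn9 were identical at 210 of 262 aligned columns (80.2%), whereas the other pairs of members had 45.5 to 53.4% identity. The ISRE core ended 39 bases before the first start of Slfn8 and 36 bases before that of Slfn9. It was also present before Slfn5, 155 to 146 bases from the start, so that 3 of 7 members held it, against 2.98% of 32851 mouse promoters of the same length. Slfn8 and Slfn9, being so alike, are not separate cases in this count. The Slfn5 window, chr11:82951852-82952101, lies inside the gene as GENCODE places it, with a start at 82951349. The run ACTTCCTGG stood before Slfn1, Slfn2, Slfn3 and Slfn4, between 74 and 34 bases from the start, and before 0.7% of all promoters. A consensus site of NF-κB was present before Slfn1 and Slfn9 (3.9% of promoters), and TTCNNNGAA, the core of the interferon γ-activated site, before none of the members (7.02% of promoters). These matches describe letters within a window and were not tested for binding.

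Library totals lay between 45966803 and 58976377 counts. The macrophage markers Adgre1, Cd68, Csf1r, Itgam, Spi1, Lyz2 and Ptprc were all present in every library, with a summed level of 5560 to 10810 CPM (counts scaled to the library total with TMM factors), and 5 markers of T and B cells had 0 to 4 counts. Replicate 1 at 10 µM held 1039 counts of the epithelial keratin Krt8, 451 of Epcam, 86 of the collagen gene Col1a2 and 43 of Col1a1. Replicate 1 at 3.2 µM held 153, 78, 6 and 6 counts of the same genes, and the other 8 libraries had 0 to 2 counts of Krt8 and Epcam, 0 of Col1a2 and 0 to 6 of Col1a1. Replicate 2 at 32 µM held 2.46% of its counts on Gm42418, a noncoding gene that overlaps ribosomal RNA sequence, against 0.0419 to 0.207% elsewhere. In DMSO and at 10 and 32 µM, replicate 2 also differed from replicate 1 along transcript length: genes with transcripts under 1000 nt had a median log2 ratio of replicate 2 to replicate 1 of −0.37, −0.38 and −0.42, and those over 5000 nt one of 0.09, 0.09 and 0.07. In DMSO + LPS these medians were 0.11 and −0.04, and at 3.2 µM −0.09 and 0.01. The part of this difference in the results was not tested. The members' tests were also computed without each library in turn. The calls for Slfn10-ps, for the neighbors of the cluster and for the interferon genes were also computed without 1 at a time of the 3 libraries with high Gm42418, Krt8 or Epcam counts, called here the libraries that stood apart. This alternative was added once the data had been seen. The label checks followed the conditions: Nos2, the inducible nitric oxide synthase, had 2 and 0 counts in DMSO and 9463 and more in DMSO + LPS, and Nqo1, a target gene of Nrf2, rose from 2.58 and 2.66 CPM in DMSO + LPS to 16.1 and 16.4 CPM at 32 µM.

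LPS raised 5 members (Slfn1, Slfn2, Slfn4, Slfn5, Slfn8) and lowered 2 (Slfn3, Slfn9). Calls required a change of 1.5-fold or more and a Benjamini-Hochberg adjusted p below 0.05 in edgeR's quasi-likelihood test over all genes tested. By this rule 28.2% of all genes tested were called for LPS, 14.6% higher and 13.6% lower, against 7 of 7 members. The median log2 fold change was 1.94 over the members and 0.00 over all genes. Because the RNA came from whole cultures, fewer cells expressing a gene and less RNA per cell cannot be told apart. Of the 7 macrophage markers, LPS raised Adgre1 (log2 1.07) and Itgam (0.98) and lowered Csf1r (−1.48) and Lyz2 (−0.65), with Spi1 (0.58, edgeR adjusted p = 0.000137) under the fold required. The summed level of the 7 was 9941 and 10810 CPM in DMSO and 7121 and 7139 CPM in DMSO + LPS. The part of this difference in the result was not tested.

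Of the short members, Slfn1, which restrains the growth of thymocytes, was all but silent in resting cells. It had 1 and 0 counts in DMSO and 160 and 126 counts in DMSO + LPS, or 2.79 and 2.68 CPM. With 1 count in the resting libraries together, the ratio of the scaled counts was 317, with a 95% counting interval from 56.5 to 12600 (edgeR adjusted p = 4.7e-06). Slfn2, needed by T cells and monocytes to keep their quiescence, was the most abundant member per kb of exon in every library. Its level went from 81.3 and 77.0 CPM in DMSO to 736 and 746 CPM in DMSO + LPS, a 9.36-fold rise (log2 fold change 3.23 ± 0.054 SE, n = 2 against 2, edgeR adjusted p = 4.33e-09).

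The intermediate members are direct neighbors that went opposite ways. Slfn4, a gene of myeloid cells, had 53.0 and 56.4 CPM in DMSO and 436 and 428 CPM in DMSO + LPS, a 7.90-fold rise (log2 2.98 ± 0.084, edgeR adjusted p = 5.34e-08). Slfn3, studied mainly in T cells and in the differentiation of gut epithelium, had 8.26 and 11.01 CPM in DMSO and 4.68 and 4.77 CPM in DMSO + LPS, a 2.04-fold fall (log2 −1.03 ± 0.15, edgeR adjusted p = 0.000542). In neither gene did the groups overlap, which was not counted over all genes. The ratio of Slfn4 to Slfn3 counts went from 6.41 and 5.12 in DMSO to 93.1 and 89.7 in DMSO + LPS.

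The long members also split. Slfn5, a nuclear member known to regulate transcription, had 3666 and 3819 counts in DMSO and 15155 and 10925 counts in DMSO + LPS, or 64.8 ± 3.5 and 249 ± 22.6 CPM (SD, n = 2), a 3.84-fold rise (log2 1.94 ± 0.11, edgeR adjusted p = 2.45e-06). Slfn8 had 22.26 and 24.01 CPM in DMSO and 86.1 and 79.6 CPM in DMSO + LPS (log2 1.84 ± 0.093, edgeR adjusted p = 1.3e-06). Slfn9, whose upstream sequence is closest to that of Slfn8, had 39.2 and 49.0 CPM in DMSO and 25.4 and 20.1 CPM in DMSO + LPS (log2 −0.95 ± 0.22, edgeR adjusted p = 0.00641). The groups of Slfn9 did not overlap, but its call was lost when replicate 2 of DMSO + LPS was left out (log2 −0.80, edgeR adjusted p = 0.0583). The ratio of Slfn8 to Slfn9 counts, below 1 in both resting libraries (0.568 and 0.490), was 3.39 and 3.96 with LPS, so the order of the 2 genes turned over.

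**Figure D1:**
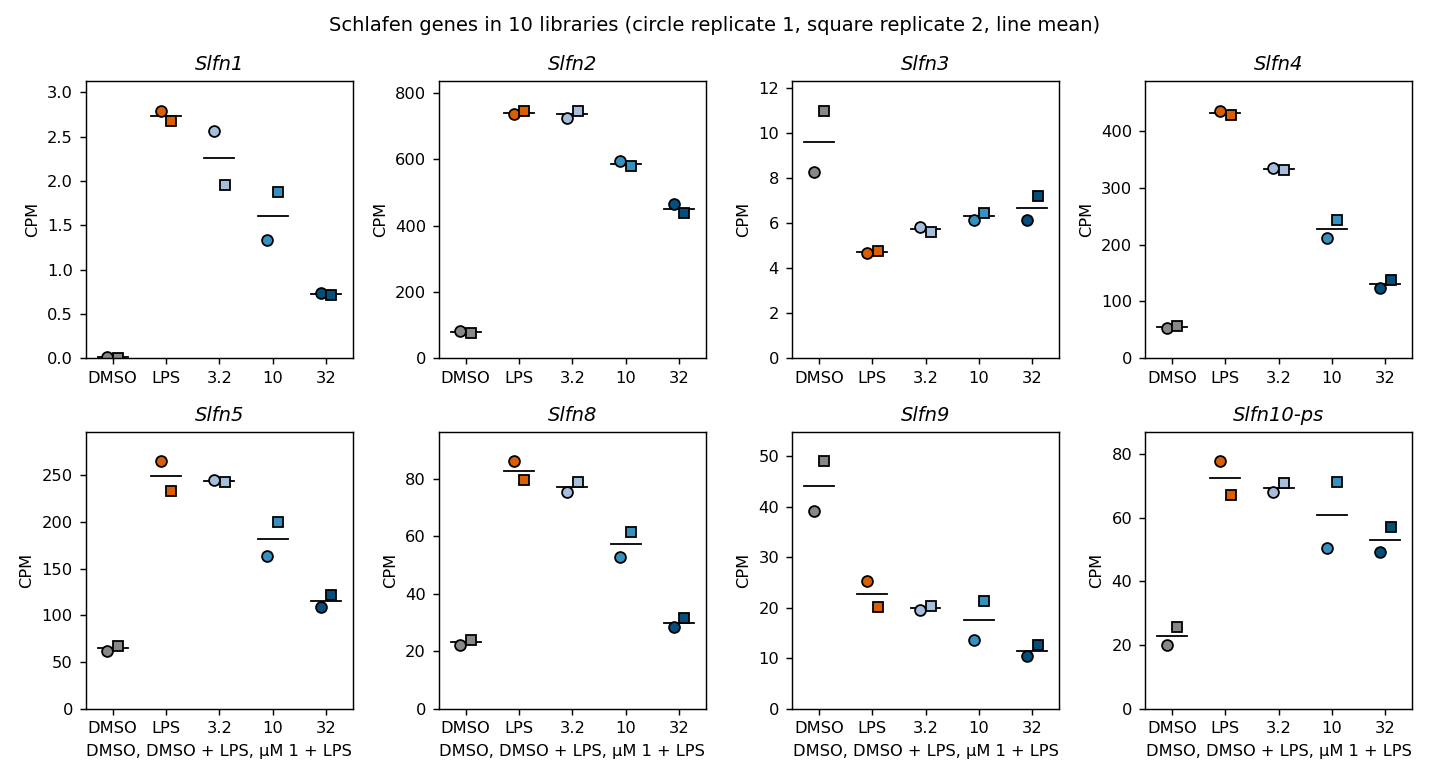
Level of each Schlafen member and of Slfn10-ps in the 10 libraries, in CPM on a linear axis that starts at 0 and differs between panels. Conditions run from DMSO and DMSO + LPS to 3.2, 10 and 32 µM of **1** with LPS, circles are replicate 1, squares replicate 2 and lines the mean. Slfn1, Slfn2, Slfn4, Slfn5 and Slfn8 are high in DMSO + LPS and lowest among the LPS conditions at 32 µM, Slfn9 is lower still at 32 µM than after LPS, and Slfn3 is lower in DMSO + LPS than in DMSO and higher again with **1**, a difference from DMSO + LPS that did not pass the test at any dose.

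Compound **1** at 32 µM lowered 6 of 7 members below DMSO + LPS, where 4.18% of all genes tested were called, 1.27% higher and 2.91% lower. These were the 5 members that LPS had raised, and Slfn9, which LPS had lowered. The median log2 fold change was −1.11 over the members and 0.01 over all genes. All doses are compared with the same 2 DMSO + LPS libraries. Of the 7 macrophage markers, Itgam (log2 −0.67) and Lyz2 (−0.61) were also called lower at 32 µM, and the markers' summed level was 7121 to 7139 CPM in DMSO + LPS and 5560 to 5940 CPM at 32 µM. Lyz2 had a mean of 4126 CPM in DMSO + LPS and 2706 CPM at 32 µM, and Csf1r had 814 and 1071 CPM (log2 0.40, edgeR adjusted p = 0.00118, under the fold required). Adgre1 was lower, also under the fold (log2 −0.31, edgeR adjusted p = 0.00423), and Cd68, Spi1 and Ptprc had an adjusted p above the threshold. The part of that difference in the result was not tested.

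The largest fall on the log2 scale was that of Slfn1, from 2.79 and 2.68 CPM in DMSO + LPS to 0.736 and 0.708 CPM at 32 µM (36 and 32 counts, log2 −1.92 ± 0.30, edgeR adjusted p = 0.00479). Slfn4 reached 123 and 137 CPM, a 3.31-fold fall (log2 −1.73 ± 0.080, edgeR adjusted p = 8.94e-06). Slfn8 reached 28.3 and 31.6 CPM, a 2.76-fold fall (log2 −1.47 ± 0.092, edgeR adjusted p = 3.99e-05). In these members both 32 µM libraries lay far below both DMSO + LPS libraries and close to each other.

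Slfn5 fell to 109 and 121 CPM, 2.16-fold (log2 −1.11 ± 0.11, edgeR adjusted p = 0.00041). Slfn2 kept the highest level and had the smallest called change, to 466 and 437 CPM (1.64-fold, log2 −0.71 ± 0.050, edgeR adjusted p = 7.49e-05). These calls were kept when either 32 µM library was left out, including replicate 2 with its high share of Gm42418.

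Slfn9 was the least certain of the 6. It had 10.4 and 12.6 CPM at 32 µM, both below the DMSO + LPS libraries (log2 −0.99 ± 0.22, edgeR adjusted p = 0.029). The call was lost without replicate 1 or 2 of DMSO + LPS (adjusted p = 0.207 and 0.0654), of 32 µM (0.155 and 0.0825) or of 3.2 µM (0.0659 and 0.0667), with a log2 fold change between −1.14 and −0.81. Slfn3 had 6.13 and 7.23 CPM, both above the DMSO + LPS libraries, but did not pass the test (log2 0.50 ± 0.15, edgeR adjusted p = 0.0792).

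**Figure D2:**
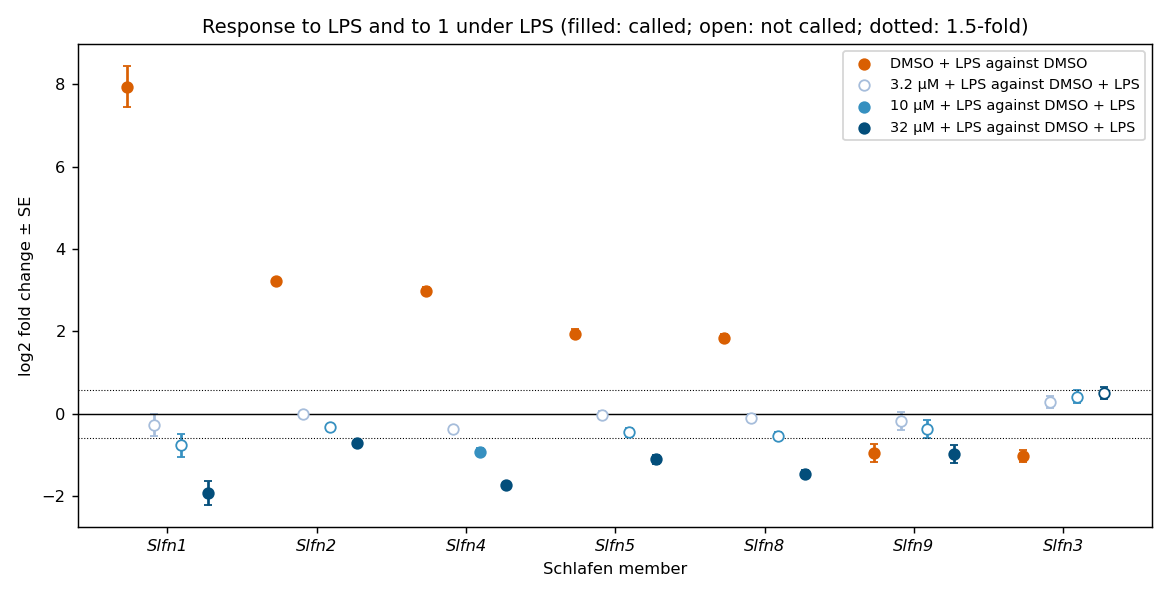
Log2 fold change with its standard error for each member, for DMSO + LPS against DMSO (orange) and for each dose of **1** against DMSO + LPS (light to dark blue for 3.2, 10 and 32 µM). Standard errors were derived from the F statistic of the test. Filled points were called, open points were not, and dotted lines mark a 1.5-fold change. The 32 µM points lie below 0 for 6 members and above 0 for Slfn3, and the resting level of Slfn1 rests on 1 count.

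The lower doses gave smaller differences from DMSO + LPS. At 10 µM only Slfn4 was called, 1 of 7 members beside 0.861% of all genes tested (0.282% higher and 0.579% lower). It had 212 and 244 CPM, between the levels at 3.2 and 32 µM (log2 −0.92 ± 0.079, edgeR adjusted p = 0.00162), and it remained called without either 10 µM library. Slfn8 (log2 −0.54 ± 0.090, adjusted p = 0.0227) and Slfn2 (log2 −0.34 ± 0.049, adjusted p = 0.0129) had an adjusted p in edgeR below the threshold but changed less than 1.5-fold. Slfn5 (−0.46), Slfn1 (−0.77), Slfn9 (−0.38) and Slfn3 (0.42) did not pass. The value for Slfn9 rested on single libraries: it was −0.09 and −0.76 without replicate 1 and 2 at 10 µM, and −0.20 and −0.54 without replicate 1 and 2 of DMSO + LPS, and it was not called in any of these fits. The median over the members was −0.46. The macrophage markers' summed level was 7121 to 7139 CPM in DMSO + LPS and 5966 to 6592 CPM at 10 µM. No marker was called there. Itgam (log2 −0.44), Adgre1 (−0.25) and Csf1r (0.25) passed the adjusted threshold under the fold required, and Lyz2 (−0.34) did not pass it. The part of these markers in the result was not tested.

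Replicate 1 at 10 µM, the library with Krt8 and Epcam counts, was lower than replicate 2 in Slfn1 (1.33 and 1.88 CPM), Slfn4, Slfn5 (163 and 199 CPM), Slfn8 (52.8 and 61.6 CPM) and Slfn9 (13.7 and 21.3 CPM), and higher in Slfn2 (594 and 580 CPM). With 1 library left out at a time, the log2 fold change at 10 µM lay between −1.05 and −0.83 for Slfn4. It lay between −0.63 and −0.32 for Slfn5 and between −0.67 and −0.43 for Slfn8. The part of the Krt8 and Epcam signal in the 10 µM result was not tested.

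At 3.2 µM no member was called by edgeR, as no gene was (0% of those tested), with 600 genes and 1 member at an unadjusted p below 0.05. Of the 600 genes, 120 also changed at least 1.5-fold, and the member was not among these. DESeq2's Wald test called 8 genes and 0 members there, and edgeR on the 4 libraries compared called 66 genes and 0 members. The 1 member was Slfn4, with 335 and 331 CPM against 436 and 428 in DMSO + LPS (log2 −0.38 ± 0.078, edgeR adjusted p = 0.625). Its groups did not overlap, and neither did those of Slfn1 and Slfn8, also lower, or of Slfn3, higher. The share of all genes without overlap was not computed, so this is a description. Slfn2 (725 and 747 CPM) and Slfn5 (244 and 243 CPM) overlapped the DMSO + LPS libraries, with log2 fold changes of −0.01 ± 0.049 and −0.03 ± 0.11. No member was called without replicate 1, which held the smaller Krt8 signal.

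The step from 10 to 32 µM was tested directly and called 3 members lower at 32 µM (Slfn4, Slfn5, Slfn8), beside 1.32% of all genes tested (0.169% higher and 1.15% lower). The log2 differences were −0.93 ± 0.092 for Slfn8, −0.81 ± 0.079 for Slfn4 and −0.66 ± 0.11 for Slfn5 (edgeR adjusted p = 0.00139, 0.00136 and 0.0171). Slfn1 differed more (−1.15 ± 0.30) but with an adjusted p of 0.119, and Slfn2 (−0.38 ± 0.050) had an edgeR adjusted p of 0.00626 but was under the fold required. These calls are less secure than those against DMSO + LPS: none of the 3 was called when edgeR was fitted on the 4 libraries alone (adjusted p = 0.0982, 0.111 and 0.254), and Slfn5 was lost without replicate 1 or 2 at 3.2 µM, without replicate 1 or 2 at 32 µM, and without replicate 2 at 10 µM. From 3.2 to 10 µM, 0 members were called by edgeR and by DESeq2, beside 0.254% of all genes (0.0706% higher and 0.183% lower), and 4 had an unadjusted p below 0.05 in edgeR (Slfn2, Slfn4, Slfn5, Slfn8). Of these, Slfn4 (log2 −0.55, edgeR adjusted p = 0.0269) and Slfn2 (−0.33, 0.0314) also passed the adjusted threshold and were under the fold required. With 1 library left out at a time, the log2 difference lay between −0.66 and −0.45 for Slfn4 and between −0.59 and −0.29 for Slfn5.

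The members differed in how much of the LPS rise was left under **1**, measured as the CPM above the DMSO mean in percent of that in DMSO + LPS. At 32 µM, Slfn8 kept 8.69 and 14.3% of its rise, Slfn4 18.2 and 21.9%, Slfn1 26.6 and 25.6%, and Slfn5 23.9 and 30.8%. Slfn2 kept 58.5 and 54.1%, above every library of the other 4 members. Slfn1 and Slfn5 overlapped, so their order is not set by these libraries. At 3.2 µM the lowest mean was that of Slfn4, with 74.3 and 73.1% left, and Slfn2 and Slfn5 kept 96.8 to 101%. The smallest p that an exact permutation test of 2 libraries against 2 allows is 0.333, and the differences between members are given as a description.

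**Figure D3:**
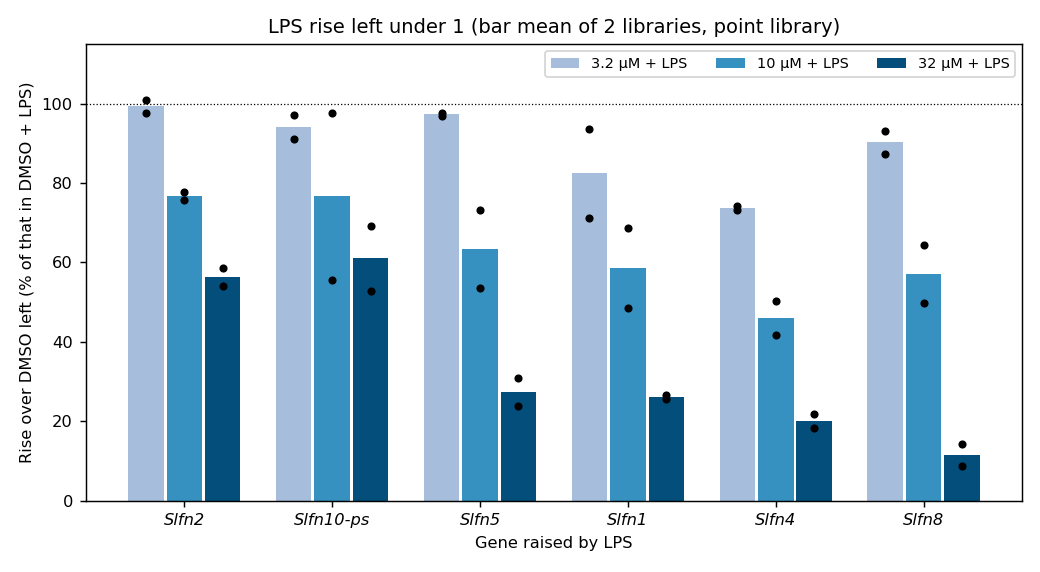
Share of the LPS rise left at 3.2, 10 and 32 µM of **1** for the 5 members raised by LPS and for Slfn10-ps, in percent of the rise in DMSO + LPS, with bars for the mean of 2 libraries and points for each library. At 32 µM the mean runs from 11.5% in Slfn8 to 56.3% in Slfn2 and 61.0% in Slfn10-ps, and the dotted line marks 100%.

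Against resting cells, 5 members were called at 32 µM, beside 27.1% of all genes tested (13.9% higher and 13.3% lower). Of the macrophage markers, Adgre1 (log2 0.76) was called higher and Csf1r (−1.08) and Lyz2 (−1.25) lower in this comparison, with Itgam (0.31) and Spi1 (0.46) under the fold required, and the summed level was 9941 to 10810 CPM in DMSO and 5560 to 5940 CPM at 32 µM. Their part in the result was not tested. Slfn2 (5.71-fold), Slfn4 (2.39-fold) and Slfn5 (1.78-fold) were higher than in DMSO (edgeR adjusted p = 1.52e-08, 5.73e-06 and 0.000334), as was Slfn1, with 68 counts against 1 (ratio 83.5, 95% counting interval 14.5 to 3340). Slfn8 was 1.30-fold higher with an adjusted p of 0.0102 in edgeR, under the fold required for a call. Its log2 value was 0.37 here and between 0.17 and 0.45 over the alternatives. Slfn9 was 3.83-fold lower than in resting cells (log2 −1.94 ± 0.22, edgeR adjusted p = 0.000173), and this call held under every alternative. Slfn3 was 1.44-fold lower (adjusted p = 0.016 in edgeR), under the fold required, and passed the fold as well with library size alone. Its log2 value was −0.53 here and between −0.73 and −0.34 over the alternatives.

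Per kilobase of exon, Slfn2 led in every condition, followed by Slfn4 and Slfn5. In DMSO these had 47.6 ± 1.8, 13.8 ± 0.60 and 10.2 ± 0.56 CPM per kb (SD, n = 2), with Slfn9 (7.39 ± 1.2) above Slfn8 (5.66 ± 0.30), then Slfn3 (2.83 ± 0.57) and Slfn1 (0.0046). In DMSO + LPS, Slfn2 had 445 ± 4.2, Slfn4 109 ± 1.3 and Slfn5 39.3 ± 3.6 CPM per kb, and Slfn8 (20.3 ± 1.1) now stood above Slfn9 (3.81 ± 0.63). The last places went to Slfn1 (1.439 to 1.499) and Slfn3 (1.37 to 1.40), which came close without overlapping. At 32 µM the first 4 kept their order with 271 ± 12, 32.9 ± 2.5, 18.2 ± 1.4 and 7.33 ± 0.57 CPM per kb, while Slfn3 (1.80 to 2.12) and Slfn9 (1.75 to 2.11) overlapped.

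The paralogs could in principle exchange reads, so their transcripts were compared in windows of 150 nt, the read length. Slfn1, Slfn2, Slfn4 and Slfn8 shared no identical window with another gene, Slfn9 shared 87 of 5963 windows with Slfn10-ps, and Slfn3 shared 43 of 3336 with Gm11427. Slfn5 shared 338 of 6196 with its antisense gene Slfn5os. Exact windows do not cover reads with mismatches, and how the counting treated strand and multiple hits is not given in the sources used here.

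The other genes with a Slfn symbol were mostly silent. Slfn14 had 1 count in the 10 libraries together and Slfnl1 0 to 3 counts a library. Slfn5os had 0 counts throughout, which allows up to 3 counts a library, for counting error only. Slfn10-ps, a transcribed pseudogene next to Slfn8, was expressed at 20.2 and 25.7 CPM in DMSO and rose to 77.7 and 67.0 CPM with LPS (log2 1.66 ± 0.18, edgeR adjusted p = 0.000125). At 32 µM it had 49.1 and 57.1 CPM and was not called (log2 −0.45 ± 0.18, edgeR adjusted p = 0.184), nor was it without any 1 of the 3 libraries that stood apart (edgeR adjusted p = 0.0701 to 0.288). Its counts relative to Slfn8 were 0.902 and 0.841 in DMSO + LPS and 1.73 and 1.80 at 32 µM, without overlap.

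For the same pattern, 15 protein-coding genes within 300 kb of the cluster were looked at, and 11 of them were tested. LPS raised 2 of the 11 (Rffl, an E3 ubiquitin ligase, and Heatr9), beside 14.6% of all genes tested, with a median log2 fold change of 0.30. Heatr9 rested on few counts: 1 in each DMSO library, 14 in each DMSO + LPS library, and 3 and 6 at 32 µM. With at most 29 counts in any library, Cct6b, Unc45b, Fndc8 and Heatr9 could be called only for large changes. At 32, 10 and 3.2 µM 0 of the 11 were called by edgeR, where 4.18% of all genes tested were called at 32 µM, 0.861% at 10 µM and 0% at 3.2 µM. At 32 µM their median was −0.05 and 2 had an unadjusted p below 0.05: Rffl (log2 −0.26 ± 0.056, adjusted p = 0.0257, under the fold required) and Heatr9 (−1.47 ± 0.62, adjusted p = 0.212). Without any 1 of the 3 libraries that stood apart, 0 of the 11 were again called at each dose.

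**Figure D4:**
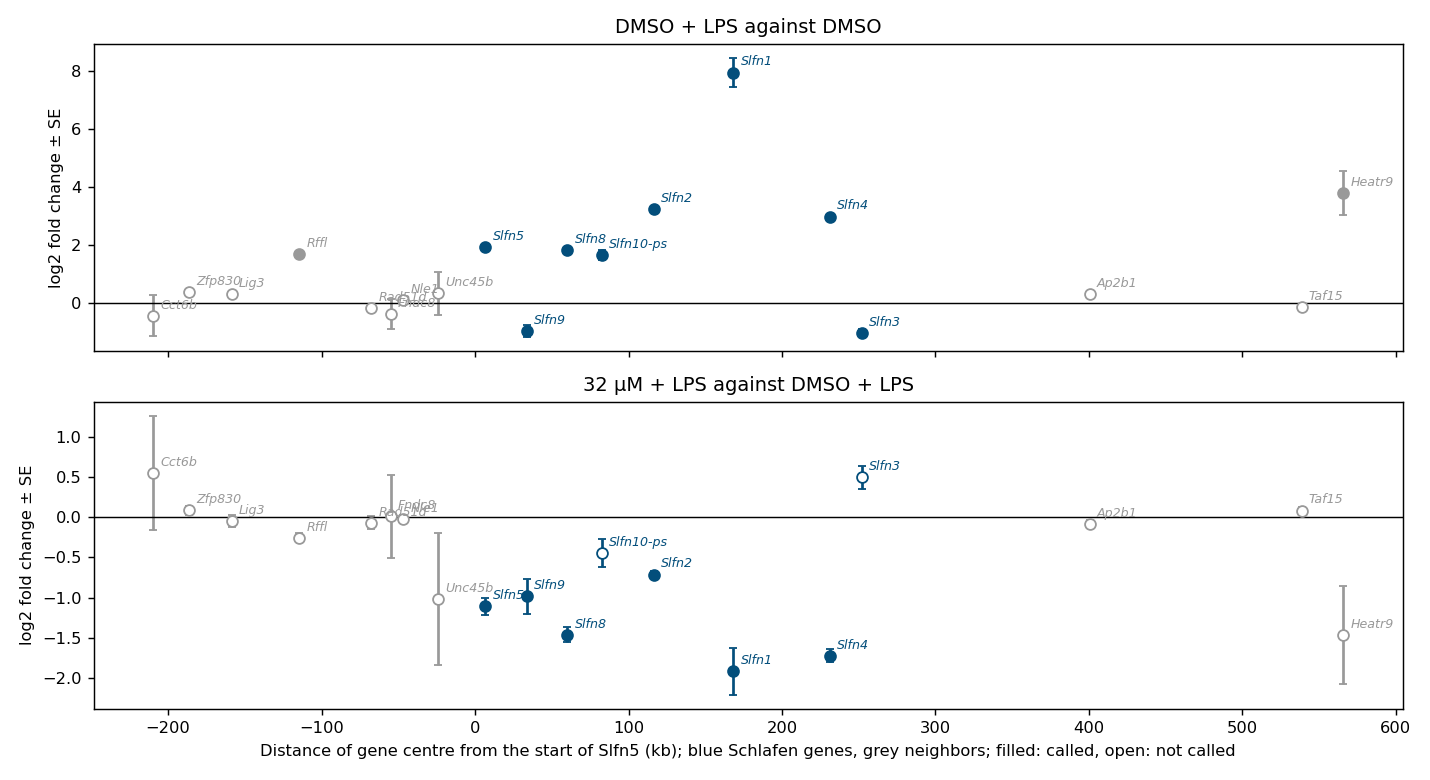
Log2 fold change with its standard error along the Schlafen cluster, against the distance of each gene's centre from the start of Slfn5 in kb, for LPS (upper) and for 32 µM of **1** under LPS (lower). Standard errors were derived from the F statistic of the test. Schlafen genes including Slfn10-ps are blue and tested neighbors grey, with filled points for called genes. In the lower panel the filled points are the 6 called members, and all 11 neighbors are open, among them Cct6b, Unc45b, Fndc8 and Heatr9 with few counts.

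The type I interferon route was followed as a list of 19 genes, from the adaptor Ticam1 and kinases to interferon β, its receptor and the factors that bind the ISRE. LPS raised 11 of the 19 and lowered 0, beside 14.6% of all genes tested, with a median log2 fold change of 1.05. The ligand gene Ifnb1 rose (log2 3.68 ± 0.33), as did the kinase genes Tyk2 (0.90) and Ikbke (3.77), the adaptor Ticam1 (1.53), the factors Stat2 (1.67), Irf9 (1.23), Irf5 (1.05) and Irf7 (3.21), and the feedback inhibitors Usp18 (3.51), Socs1 (2.84) and Socs3 (6.74). The receptor gene Ifnar1 (0.08), Irf1 (0.12) and Irf3 (0.07) had an adjusted p above the threshold. Ifnar2 (−0.48, edgeR adjusted p = 0.0356), Jak1 (0.42, 0.000879), Tbk1 (0.51, 0.000386), Irf2 (−0.35, 0.00283) and Irf8 (−0.25, 0.0095) passed it but were under the fold required.

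At 32 µM, 5 of the 19 fell below DMSO + LPS, beside 2.91% of all genes tested: Ifnb1 (log2 −2.21 ± 0.30), Irf7 (−1.48 ± 0.062), Stat2 (−1.45 ± 0.051), Usp18 (−1.40 ± 0.064) and Ikbke (−0.69 ± 0.11), with edgeR adjusted p between 3.09e-06 and 0.00489. The median of the list was −0.28. Another 5 genes had lower values with an edgeR adjusted p below 0.05 but under the fold required: Irf9, the DNA-binding partner of Stat2 (−0.28 ± 0.043, adjusted p = 0.00498), Socs3 (−0.30, 0.00282), Socs1 (−0.55, 0.0151), Irf1 (−0.41, 0.0165) and Irf8 (−0.28, 0.0258). The receptor genes had an adjusted p above the threshold (Ifnar1 0.14 ± 0.060, Ifnar2 0.20 ± 0.16). At 10 µM, where 0.579% of all genes tested were called lower, Stat2 was the 1 gene called (−0.65 ± 0.050, edgeR adjusted p = 0.000966). Irf7 (−0.55, 0.00408) and Usp18 (−0.44, 0.0118) were under the fold required. At 3.2 µM edgeR called 0 of the 19, beside 0% of all genes tested, and Stat2 and Irf7 had an unadjusted p below 0.05. Without any 1 of the 3 libraries that stood apart, the same 5 genes were called at 32 µM and 0 at 3.2 µM, and at 10 µM Stat2 was called each time, with Irf7 beside it without replicate 1 at that dose.

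Protein-coding genes most like each member, at most 2 a member, were taken from 2003 genes with a mean of at least 5 CPM over the 10 libraries that varied by at least 1 log2 unit, by Pearson's r of log2 CPM over the 10 libraries. These were Gbp3 and Il27 for Slfn1 (r = 0.996 each), Glrx for Slfn2 (0.999), H2-T22 and Gbp9 for Slfn4 (0.997 each), Ddx60 and Enpp4 for Slfn5 (0.998 each), and Dtx3l and Eif2ak2 for Slfn8 (0.998 and 0.996). Gbp3 and Gbp9 encode guanylate-binding proteins, Ddx60 an antiviral helicase and Eif2ak2 the kinase PKR. For Slfn9 the nearest genes were Tlr7, the endosomal sensor of single-stranded RNA, and Bahcc1 (0.990 and 0.985). For Slfn3 they were the transcription factor gene Fli1 and Megf9 (0.960 and 0.958). The 10 points share 5 conditions, which set most of each r.

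Among the members themselves, the 5 raised by LPS had pairwise r between 0.839 (Slfn2 and Slfn8) and 0.992 (Slfn1 and Slfn2, and Slfn4 and Slfn5) over the same 10 libraries, and between 0.876 and 0.994 over the 7 left without the 3 libraries that stood apart. Slfn8 and Slfn9, with the most similar upstream sequences, had r = −0.20 over the 10 libraries and −0.33 over the 7, and the neighbors Slfn4 and Slfn3 had r = −0.91 and −0.92.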

How the data were processed

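RNA from RAW264.7 cells was sequenced by the authors as directional, poly(A)-selected libraries, and raw counts per mouse Ensembl gene were deposited without normalization (10 libraries, 45966803 to 58976377 counts). The submitters' processing notes name Trimmomatic, FastQC, STAR, DESeq2 and mm10; the counting tool, its strand setting and the annotation are not given in the sources used here.

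Groups were taken from the labels, which number the replicates but do not say how the cultures were made, so p-values measure the spread between these libraries. Replicates differed beyond counting noise (chi-square per degree of freedom 3.37 to 190). Symbols, positions and exon lengths came from GENCODE M21, upstream sequences from RefSeq (GRCm38.p6); all 7 members matched in both.

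Counts were filtered with filterByExpr (minimum count 10), scaled by TMM and fitted in edgeR 4.0.16 (R 4.3.3) with 1 mean per condition over all 10 libraries, leaving 5 residual degrees of freedom and a common biological coefficient of variation of 0.128. Quasi-likelihood tests were adjusted over 14172 genes. Each SE was derived from the test, as the absolute log2 fold change divided by the square root of its F statistic. CPM refers to scaled totals, and counting intervals cover counting error only. The steps were also run on simulated counts with known changes and the same spread for every gene. That setting is simpler than these libraries and does not measure error rates here. Alternatives were DESeq2 1.42.0 (size factors, Wald test), library size alone, no filter, the 4 libraries compared, the replicate number, and each library left out. The members, gene lists and tests were chosen with earlier results of these data known. Genes named are the members, other Slfn genes, the interferon list, neighbors within 300 kb, up to 2 most correlated genes per member and the checks Nos2, Il1b and Nqo1. Il1b had 1.15 and 1.16 CPM in DMSO, 1529 and 1541 in DMSO + LPS, and 480 and 471 at 32 µM. Some genes of these lists are not reported here and are left out of the lists' counts and medians.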

Additional observations from a re-analysis of the deposited data

How the results depend on the processing

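Over 16 alternatives, 757 of 784 values for single members kept their direction and their side of the threshold. Among the alternatives other than leaving out 1 library, the number of members called changed by more than 1.5 times in 1 case: 32 against 10 µM gave 0 in place of 3 with edgeR on the 4 libraries compared, a fit with fewer samples. Leaving out 1 library at a time (a condition's single remaining library is then taken to vary as the other conditions do) gave 6 to 7 members for LPS, 5 to 6 at 32 µM, 1 to 3 at 10 µM, 0 at 3.2 µM, 2 to 3 for 32 against 10 µM, 0 to 2 for 10 against 3.2 µM and 5 to 6 for 32 µM against resting cells. The sign turned only in differences that were not called: Slfn2 at 3.2 µM (−0.033 to 0.014), Slfn5 at 3.2 µM (−0.12 to 0.067), Slfn3 for 32 against 10 µM (−0.039 to 0.20) and Slfn9 for 10 against 3.2 µM (−0.562 to 0.093). The cause was not tested.

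Over all genes, the count at 10 µM was 41 on the 4 libraries, 52 and 59 without replicate 1 and 2 of DMSO + LPS, and 227 without replicate 2 at 10 µM, against 122. At 3.2 µM it was 8 with DESeq2's Wald test, 66 on the 4 libraries and 1 with no count filter, without replicate 2 of DMSO + LPS or without either 32 µM library, against 0. For 32 against 10 µM it was 5 on the 4 libraries, against 187. For 10 against 3.2 µM it was 54 with DESeq2's Wald test, 0 on the 4 libraries, 19 without either DMSO + LPS library, 6 and 5 without replicate 1 and 2 at 3.2 µM, and 22 and 66 without replicate 1 and 2 at 10 µM, against 36.

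With the replicate number as a block, 7, 6, 1, 0, 3, 0 and 5 members were called for LPS, 32, 10 and 3.2 µM, 32 against 10 µM, 10 against 3.2 µM and 32 µM against resting cells, the same counts as without it. Deviations of same-numbered libraries correlated between −0.169 and −0.066 for pairs of conditions with DMSO + LPS, and between 0.104 and 0.573 among the other conditions. The main fit did not take the numbers as pairs. Depth limits Slfn1 most, with 32 to 160 counts in the LPS-stimulated libraries and 1 in the resting ones.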
